A study of Mus musculus with 80 samples.

Results

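A set of 10 genes of neutrophils and of the signals that call them was followed across 80 mouse mammary tumours driven by Myc. They were chosen by name: S100a8, S100a9, Ngp, Lcn2, Mmp9 and Csf3r as genes of neutrophil granules, cytosol and surface, and Cxcl1, Cxcl2, Cxcl5 and Il1b as secreted attractants and their upstream cytokine. The array held 11 probe sets for these 10 genes (2 for Mmp9), of 22626 probe sets for 12393 named genes. All tumours came from FVB mice carrying MMTV-Myc, a transgene in which the mouse mammary tumour virus promoter drives Myc in mammary epithelium. The groups were 20 E2F1 null, 20 E2F2 null, 20 E2F3 heterozygous and 20 E2F wild-type tumours, frozen when the primary tumour reached its endpoint. Ages were not given in the labels, and nothing there says whether the E2f alleles were lost in every cell of the mouse.

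Neutrophils are short-lived white blood cells that leave the marrow under granulocyte colony-stimulating factor, which acts through the receptor encoded by Csf3r. They follow gradients of CXC chemokines such as Cxcl1, Cxcl2 and Cxcl5, which epithelium, fibroblasts and macrophages release after interleukin 1 beta (Il1b) or other triggers of NF-kappaB. In tumours they are known for proteins that cut matrix or bind metals, such as the gelatinase Mmp9 of their granules and the S100a8 and S100a9 pair of their cytosol. Several of these genes are also transcribed outside neutrophils: keratinocytes under stress make S100a8 and S100a9, mammary epithelium makes Lcn2, and stromal cells make Mmp9 and the chemokines.

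Expression was measured on 1 Affymetrix array per tumour and is given as the deposited MAS5 intensity, a linear brightness per probe set that the authors had scaled. The trimmed mean of every array lay between 500.17 and 500.22. Differences were tested on log2(intensity + 5), so folds of dim genes are understated, and a probe set was tested when it exceeded an intensity of 74.58 on at least 10 arrays. All 11 probe sets passed, some of them narrowly. Ngp did so on 11 arrays (2 E2F1 null, 3 E2F2 null, 4 E2F3 heterozygous and 2 wild type), and Cxcl5 on 14, 6 of them E2F3 heterozygous. Without the E2F3 heterozygous arrays neither would have reached 10, and Ngp would not without those of any other genotype either. The place of Cxcl5 in E2F3 heterozygous contrasts, and of Ngp in every contrast, thus depends on the filter. Tumour labels carry a number, and 46 arrays share theirs with at least 1 other array, giving 53 numbers in all; whether arrays of 1 number come from 1 animal is not stated, and p-values measure the spread between these samples. The array of E2F1 null tumour 6 stood apart, with the highest fibroblast and collagen score of all (3.06), and results that rest on it are given without it as well. In whole tumours, fewer cells of a type and less RNA per cell cannot be told apart.

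RefSeq start sites (GRCm38.p6) gave the 250 bases before the start for 8 of the 10 genes, all but Cxcl5 and Mmp9. The pairs shown are neighbours on 1 chromosome that are compared with each other in the results. S100a8 (chr3:90668821-90669070, plus strand) and S100a9 (chr3:90695722-90695971, minus strand) encode the subunits of calprotectin, and Cxcl1 (chr5:90890995-90891244, plus strand) and Cxcl2 (chr5:90903649-90903898, plus strand) encode chemokines of 1 cluster. Capitals mark every match, on either strand, to the kappaB core (GGG and CC with any 5 bases between them), TTNNGNAA (C/EBP), TGANTCA (AP-1) or TATAAA.
S100a8: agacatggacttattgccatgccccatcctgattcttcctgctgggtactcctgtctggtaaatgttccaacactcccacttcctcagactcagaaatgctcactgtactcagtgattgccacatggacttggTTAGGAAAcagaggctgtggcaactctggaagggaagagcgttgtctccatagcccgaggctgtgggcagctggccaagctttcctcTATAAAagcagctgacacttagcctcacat
S100a9: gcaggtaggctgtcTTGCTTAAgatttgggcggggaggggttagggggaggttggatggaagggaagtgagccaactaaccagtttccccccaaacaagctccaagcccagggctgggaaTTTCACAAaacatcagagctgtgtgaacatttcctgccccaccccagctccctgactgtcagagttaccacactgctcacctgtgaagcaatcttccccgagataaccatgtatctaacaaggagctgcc
Cxcl1: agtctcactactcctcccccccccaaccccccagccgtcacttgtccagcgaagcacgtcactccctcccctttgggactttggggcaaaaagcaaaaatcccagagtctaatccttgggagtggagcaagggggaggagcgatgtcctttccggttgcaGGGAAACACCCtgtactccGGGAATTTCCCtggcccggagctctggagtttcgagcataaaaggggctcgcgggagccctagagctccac
Cxcl2: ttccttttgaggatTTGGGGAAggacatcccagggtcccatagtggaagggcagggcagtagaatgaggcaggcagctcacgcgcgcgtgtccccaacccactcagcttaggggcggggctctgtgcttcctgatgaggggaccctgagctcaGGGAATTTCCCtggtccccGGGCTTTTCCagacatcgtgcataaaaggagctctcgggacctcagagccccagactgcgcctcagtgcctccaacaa

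The Cxcl1 and Cxcl2 windows shared a run of 14 bases, GGGAATTTCCCTGG, that begins 71 bases before the start of Cxcl1 and 97 bases before that of Cxcl2 and holds kappaB matches on both strands that overlap by all but 1 base. Cxcl1 had a further pair of overlapping kappaB matches from 90 bases before its start, and Cxcl2 a further kappaB match from 78 bases and a C/EBP match from 236 bases before its start. S100a8 held a C/EBP match from 117 bases and a TATAAA from 30 bases before its start, while S100a9 held C/EBP matches from 236 and 130 bases before its start. Over all 8 windows, the kappaB core occurred in 4 (Csf3r, Cxcl1, Cxcl2 and Lcn2), against 45.8% of 32841 windows of the same length in the RefSeq table. The C/EBP letters occurred in 6 (Cxcl2, Il1b, Lcn2, Ngp, S100a8 and S100a9), against 36.9%, and TATAAA in 2 (Il1b and S100a8), against 12.4%. AP-1 letters were in none of the 8, against 6.75% of all windows. These are matches of letters and not measured binding.

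The neutrophil label was set against other genes of these cells. Of 32 further neutrophil genes listed, 24 were on the array and 14 passed the filter. The genes did not go 1 way. Some were near the low end: Elane, Ctsg and Trem1 exceeded the filter level on 0 arrays and Ltb4r1 on 1. Cxcr2 (the receptor for Cxcl1, Cxcl2 and Cxcl5) exceeded it on 3, Mpo and Cd177 on 4, Camp on 5 and Itgam on 6. Others of the list were above it more often: Ncf4 and Itgb2 on 80 arrays, Cybb on 51, Clec4d on 50 and Padi4 on 45. Of the macrophage list, Csf1r, Cd68 and C1qa were above it on 80 arrays too, Cd163 on 22 and Marco on 0. Which cells made the genes of either list was not tested. Ngp itself, a granule protein of neutrophil precursors, exceeded it on 11 arrays. Genes of the list that were bright on nearly every array, such as Ltf (74 arrays), Prtn3 (77), Pglyrp1 (79) and Alox5ap (80), include some, such as Ltf, that mammary epithelium is known to make. The 10 genes are described one by one below, and no share of neutrophils is drawn from them.

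None of the 10 genes differed between genotypes past the threshold (adjusted p under 0.05), in any of the 6 contrasts or in the F test over the 4 genotypes. The point estimates ordered the groups nonetheless: most members were lowest in E2F2 null and highest in E2F3 heterozygous tumours, with the largest of these differences in S100a9 (log2 -1.83) and the smallest p in S100a9 and Csf3r, given below. The tumours within each genotype differed far more than the genotype medians did.

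S100a8 and S100a9 form calprotectin, a calcium- and zinc-binding protein of the neutrophil cytosol that is also made by stressed keratinocytes. For S100a8, the lowest, median and highest intensities were 73.2, 376 and 3073 in E2F1 null, 55.7, 539 and 3604 in E2F2 null, 214, 887 and 7802 in E2F3 heterozygous and 68.7, 531 and 5752 in wild-type tumours. The 4 ranges overlapped along most of their length, and the lowest value was highest in E2F3 heterozygous tumours. For S100a9 they were 15.7, 79.1 and 967 in E2F1 null, 18.2, 46.8 and 887 in E2F2 null, 40.9, 177 and 2387 in E2F3 heterozygous and 5.95, 90.5 and 3497 in wild-type tumours. S100a9 exceeded the filter level in 10 E2F1 null, 6 E2F2 null, 18 E2F3 heterozygous and 13 wild-type tumours, and the brightest array of all was wild-type tumour 18. The S100a8 probe set is of the type (suffix _s_at) whose probes may match more than 1 transcript.

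Of the granule genes, Lcn2 was above the filter level on every array and Ngp on few. Lcn2, a carrier of iron-binding siderophores, was bright in all 80 tumours: its lowest, median and highest intensities were 6216, 11872 and 18893 in E2F1 null, 7891, 13534 and 17238 in E2F2 null, 8880, 13325 and 18206 in E2F3 heterozygous and 9336, 12905 and 17601 in wild-type tumours. The lowest 4 Lcn2 values were in E2F1 null tumours, and so was the highest. Ngp gave 19, 44 and 163 in E2F1 null, 21.6, 42.3 and 380 in E2F2 null, 25.2, 47.8 and 179 in E2F3 heterozygous and 17.6, 38.4 and 82.8 in wild-type tumours. Its medians lay below the filter level in every genotype, and a few tumours, led by E2F2 null tumour 19, stood above it. Mmp9, the gelatinase that neutrophils store and that macrophages and stroma also make, gave 6.34, 74.4 and 2339 in E2F1 null, 9.94, 63.7 and 242 in E2F2 null, 21.4, 98.1 and 564 in E2F3 heterozygous and 3.55, 101 and 2032 in wild-type tumours on its brighter probe set. No E2F2 null tumour passed 242, whereas E2F1 null tumour 6 reached 2339 and wild-type tumour 18 reached 2032. The dimmer Mmp9 probe set ranged between 1.72 and 2387 over all tumours and correlated with the brighter one across the 80 arrays (r = 0.91), with the same 4 arrays on top.

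Csf3r, the receptor for granulocyte colony-stimulating factor, had lowest, median and highest intensities of 42.8, 72.4 and 218 in E2F1 null, 22.1, 53.5 and 98.1 in E2F2 null, 31.4, 100 and 332 in E2F3 heterozygous and 30.3, 76.3 and 195 in wild-type tumours. It exceeded the filter level in 9 E2F1 null, 4 E2F2 null, 13 E2F3 heterozygous and 10 wild-type tumours, so the E2F2 null range ended where the upper tumours of the other genotypes began. Its ligand gene Csf3 exceeded that level on 16 of 80 arrays.

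The 3 chemokines differed in how far they spread. Cxcl1 had lowest, median and highest intensities of 24.6, 234 and 786 in E2F1 null, 58.6, 108 and 513 in E2F2 null, 50.3, 138 and 2072 in E2F3 heterozygous and 52.4, 142 and 560 in wild-type tumours. E2F1 null tumours held the highest Cxcl1 median and also the lowest value. Cxcl2 gave 10, 57.1 and 746 in E2F1 null, 14.5, 62.5 and 150 in E2F2 null, 18.8, 79.1 and 520 in E2F3 heterozygous and 15.9, 70.8 and 225 in wild-type tumours, and Cxcl5 gave 0.945, 26.8 and 600 in E2F1 null, 1.55, 15.4 and 242 in E2F2 null, 1.41, 44.5 and 363 in E2F3 heterozygous and 2.97, 26.9 and 432 in wild-type tumours. Cxcl5 passed the filter level on 14 arrays, 6 of them E2F3 heterozygous, and is near the floor in the rest. Il1b, the cytokine that induces these chemokines in many cell types, gave 45.7, 68.9 and 611 in E2F1 null, 33.2, 55 and 253 in E2F2 null, 45.5, 89.6 and 476 in E2F3 heterozygous and 42.1, 63.6 and 417 in wild-type tumours. Above-filter Il1b values were seen in 9 E2F1 null, 5 E2F2 null, 14 E2F3 heterozygous and 8 wild-type tumours.

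**Figure D1:**
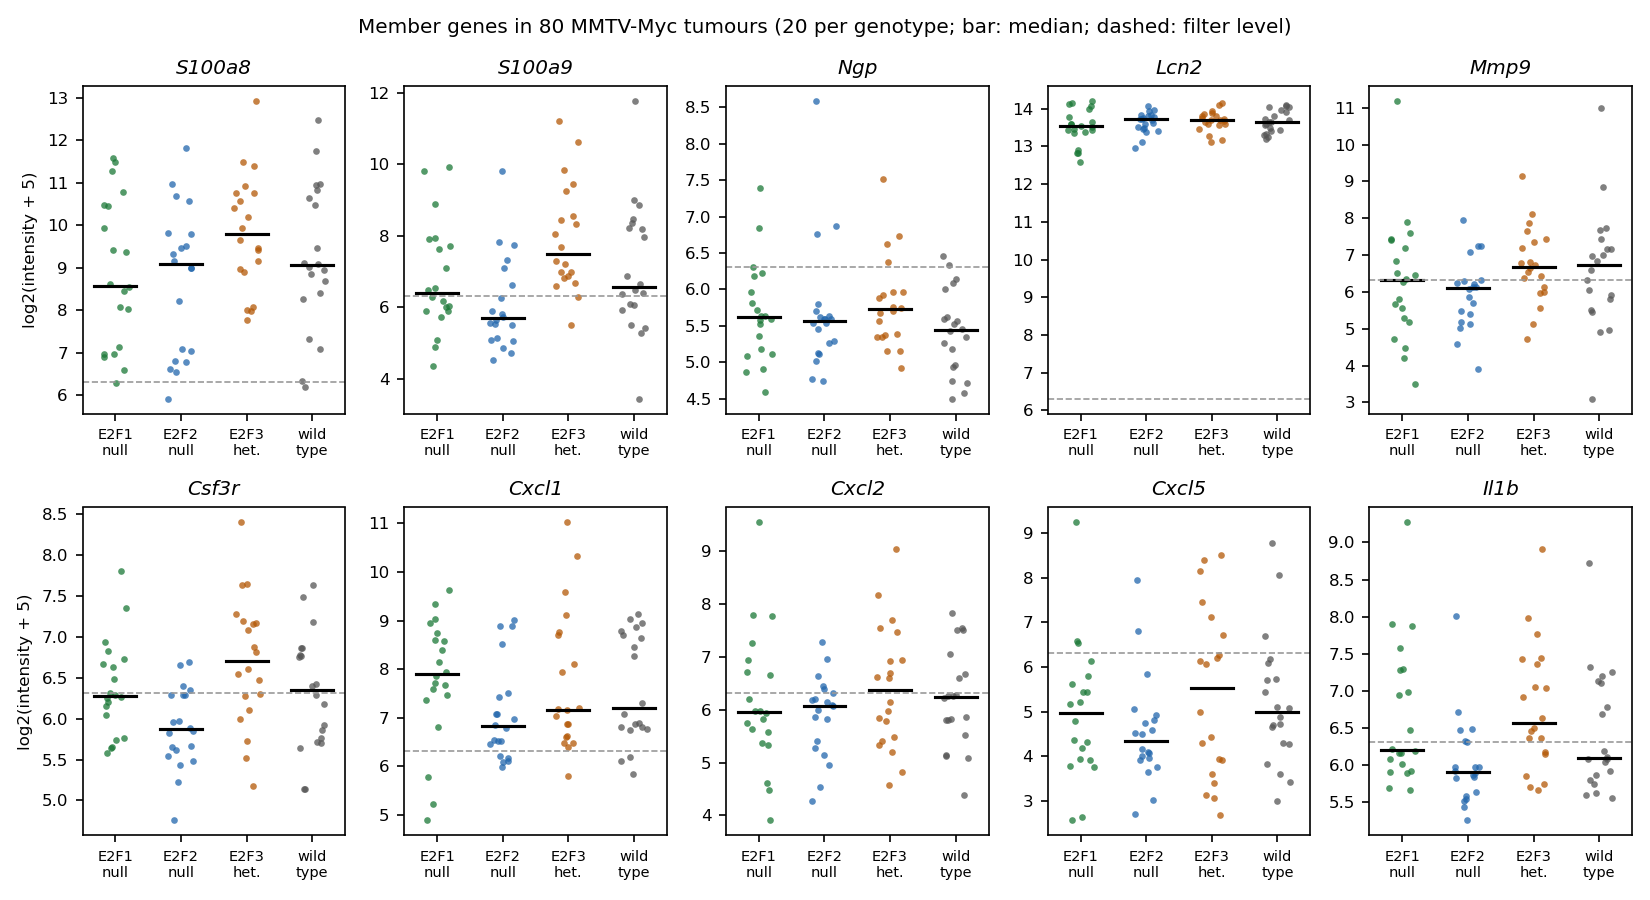
Log2(intensity + 5) of each gene (brightest probe set) in every tumour, by genotype; points are tumours (20 per genotype), bars are medians, and the dashed line is the filter level of 74.58. The genotypes overlap for all 10 genes, Lcn2 lies far above the line, and Ngp and Cxcl5 lie mostly below it.

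The comparisons with wild type set Myc tumours at endpoint that were E2F1 null, E2F2 null or E2F3 heterozygous beside E2F wild-type ones. Against wild type, 0 of 11 member probe sets were called in E2F1 null tumours (limma, adjusted p under 0.05), where 0.0923% of all 14092 probe sets were called, and 0 had an unadjusted p under 0.05 (1.24% of all). The log2 differences lay between -0.40 and 0.24, with 7 below 0 (47.9% of all) and 4 above. E2F2 null tumours likewise had 0 of 11 called (0.0355% of all) and 0 with an unadjusted p under 0.05 (6.29% of all), with 10 of 11 differences below 0 and a median of -0.50, where 51.2% of all probe sets lay below 0 and their median was -0.005. Mmp9 (dimmer probe set) had a log2 difference of -1.07 (SE 0.58, adjusted p = 0.78), S100a9 had -0.98 (SE 0.51, adjusted p = 0.78) and Csf3r -0.42 (SE 0.22, adjusted p = 0.78), and Ngp alone was above 0 at 0.24 (SE 0.23, adjusted p = 0.85). In E2F3 heterozygous tumours 0 of 11 were called (0.0071% of all) and 0 had an unadjusted p under 0.05 (0.703% of all), and 11 of 11 differences were at or above 0 (51.8% of all lay above), with a median of 0.18 beside 0.004 for all. That count depends on the setting: Lcn2 was -0.03 under median centring of the arrays, -0.02 with 1 mean per label number and -0.0014 with these genotypes alone in the fit, the Mmp9 probe sets were -0.01 and -0.04 with a pseudocount of 32, and with 1 array left out Cxcl1 reached -0.10 and the Mmp9 probe sets -0.10 and -0.08. S100a9 was the furthest at 0.85 (95% interval -0.17 to 1.87), followed by S100a8 at 0.58 (-0.50 to 1.67), while Lcn2 stood at 0.00 (-0.22 to 0.22). Because the members vary together across tumours, as shown further on, 11 differences on 1 side are not 11 separate observations, and the 3 comparisons share the wild-type tumours. Cxcl5 also passed the filter only with E2F3 heterozygous arrays counted, and Ngp only with those of every genotype counted.

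**Figure D2:**
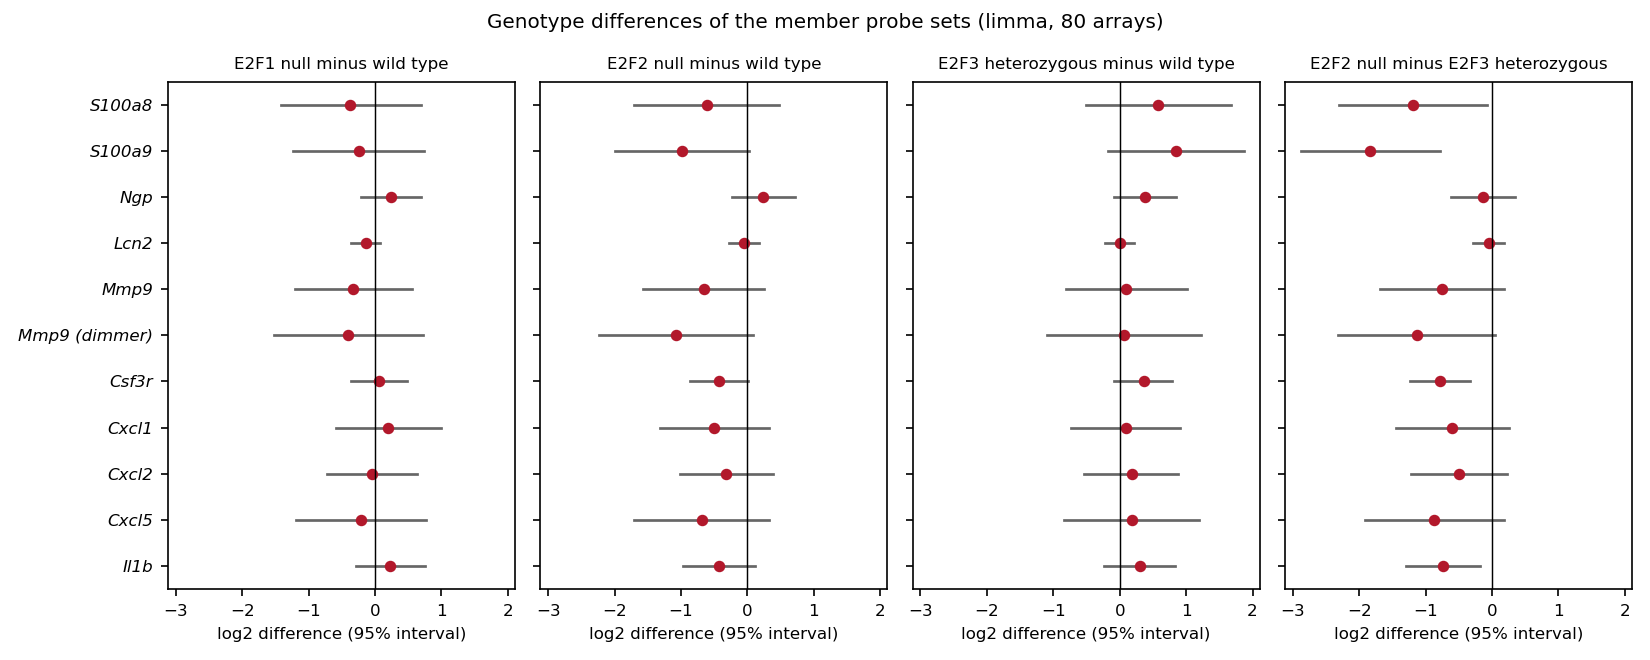
Log2 differences of the 11 member probe sets with 95% intervals (limma) for E2F1 null, E2F2 null and E2F3 heterozygous against wild-type tumours and for E2F2 null against E2F3 heterozygous tumours. Intervals include 0 in the first 3 panels for every probe set; in the last panel those of S100a8, S100a9, Csf3r and Il1b lie below 0 before adjustment over all probe sets.

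The widest contrast between groups was E2F2 null against E2F3 heterozygous. All 11 differences were below 0, except that Lcn2 was 0.01 under median centring of the arrays. Their median was -0.76, where 52.3% of all probe sets lay below 0 with a median of -0.009. None was called (0 of 11; 0.0639% of all), and 4 had an unadjusted p under 0.05 (7.64% of all) and were lower, where 4.67% of all probe sets were lower at that level. S100a9 had a log2 difference of -1.83 (SE 0.53, unadjusted p = 7.93e-04, adjusted p = 0.421) and ranked 26 by p among 14092 probe sets. Csf3r followed with -0.78 (SE 0.22, unadjusted p = 8.07e-04, adjusted p = 0.421). The fit gave all probe sets 1 shared correlation within label numbers, 0.167, whereas that of S100a9 itself was 0.72 and that of Csf3r 0.43. Their SE and p, here and in the other contrasts, may thus be too small. Over the alternative settings the unadjusted limma p reached 0.0222 for S100a9 and 0.015 for Csf3r. Il1b had -0.74 (SE 0.28) and S100a8 -1.19 (SE 0.56), each with an adjusted p of 0.632. The other 7 lay between -1.13 for the dimmer Mmp9 probe set and -0.05 for Lcn2. Among these 7, Cxcl5 passed the filter only with E2F3 heterozygous arrays counted, and Ngp only with those of every genotype counted. Without E2F3 heterozygous tumour 12, which had the highest S100a8 of all, the S100a8 unadjusted p was 0.0792.

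Between E2F1 null and E2F2 null tumours 0 of 11 were called (0.227% of all), and Il1b (log2 difference 0.66, SE 0.27, adjusted p = 0.469) and Csf3r (0.49, SE 0.22, adjusted p = 0.498) had an unadjusted p under 0.05, as 9.34% of all probe sets did. Between E2F1 null and E2F3 heterozygous tumours 0 of 11 were called (0.121% of all), and S100a9 (-1.10, SE 0.51, adjusted p = 0.999) had an unadjusted p under 0.05, as 3.14% of all did. In the F test over the 4 genotypes 0 were called (0.22% of all), and S100a9 (unadjusted p = 0.00876), Csf3r (0.00888) and Il1b (0.0406) had an unadjusted p under 0.05, as 4.09% of all did, each with an adjusted p of 0.999. The intervals leave room for sizeable differences, since the median SE of a member was 0.42 in the E2F2 null against E2F3 heterozygous contrast and 0.130 over all probe sets.

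The 6 lists of genes around the members had 0 calls (limma, adjusted p under 0.05) in every contrast. In E2F2 null minus E2F3 heterozygous tumours, point estimates lay below 0 for 11 of 14 further neutrophil genes (median log2 difference -0.41), 8 of 12 further CXC chemokines and receptors (-0.19), 8 of 11 CC chemokines (-0.05), 18 of 21 genes of the interleukin 1 and NF-kappaB circuit (-0.18), 12 of 12 further metalloproteinases and inhibitors (-0.46) and 7 of 7 further S100 genes (-0.45). Those with the smallest p included Mmp8, a neutrophil collagenase (-0.90, adjusted p = 0.632), Padi4, which citrullinates histones in neutrophils (-0.68, adjusted p = 0.632), S100a4 (-1.11, adjusted p = 0.632), Timp1, an inhibitor of metalloproteinases (-0.82, adjusted p = 0.632), and Il1r2, the decoy receptor for interleukin 1 (-0.76, adjusted p = 0.632). Mmp8 exceeded the filter level on 10 arrays, the fewest that pass, so its place here depends on the filter. Il1r2 exceeded it on 15. Against wild type, E2F3 heterozygous tumours had 2 of 14 neutrophil genes below 0 (median 0.29), led by Chil3, a chitinase-like protein of myeloid cells (1.36, SE 0.54, adjusted p = 1). Chil3 exceeded the filter level on 16 arrays, and its median intensity, 26.37, lay below that level. A direction above 0 was not particular to the neutrophil list. Below 0 were 1 of 12 further CXC chemokines and receptors (median 0.28), 0 of 19 fibroblast and collagen genes (0.30) and 0 of 12 skeletal muscle genes (0.75). Luminal epithelium (0.04) and cell cycle genes (0.04) were near 0, and the 1 mast cell gene was at -0.12.

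Markers of several other cell types lay in the same direction between E2F2 null and E2F3 heterozygous tumours, and some did not. All 19 measured fibroblast and collagen genes had a difference below 0 (median -0.46), and the list's score, the mean centred log2 value, ran between -1.41 and 1.13 in E2F2 null tumours and between -1.13 and 2.29 in E2F3 heterozygous tumours. Differences also lay below 0 for 15 of 17 macrophage genes (median -0.25; scores -0.92 to 0.58 in E2F2 null and -1.15 to 1.61 in E2F3 heterozygous tumours), 13 of 13 endothelial genes (-0.27; -0.68 to 0.56 and -0.46 to 1.45) and 11 of 11 squamous keratinocyte genes (-0.47; -1.16 to 1.95 and -0.75 to 2.72). The largest median was that of skeletal muscle genes (12 of 12 below 0, median -0.87), and basal and myoepithelial genes had 9 of 9 below 0 (-0.31). Luminal epithelium genes were near even (9 of 15, -0.03), while adipocyte genes (2 of 7 below 0, median 0.06), the 1 mast cell gene tested (0.66), interferon response genes (0 of 15, 0.48) and cell cycle genes (1 of 17, 0.18) lay on the other side. None of these was called, and their part in the members' differences was not tested. Marco was the only macrophage gene that failed the filter, and of 18 squamous genes on the array Ivl and Sprr3 exceeded the filter level on 0 arrays, Krt1 and Tgm3 on 1, Sprr2d on 2, Krtdap on 4 and Sprr1b on 5, so that these 7 were not tested. The ratio of 3' to 5' signal of the actin control, a sign of RNA quality, had a log2 median of 0.63 in E2F2 null tumours, against 0.80 in E2F3 heterozygous ones, and over label numbers its correlation with S100a9 was 0.41 and with Ngp 0.49. The same ratio for the GAPDH control had a log2 median of -0.33 in E2F2 null tumours, against -0.29 in E2F3 heterozygous ones, and its correlation was 0.48 with S100a9, 0.48 with Cxcl1, 0.37 with Ngp and 0.36 with Cxcl2. The part of RNA quality in these results was not tested.

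Most of these genes spread widely across tumours. The SD of log2 intensity over 80 arrays was 1.68 for S100a8, 1.66 for S100a9, 1.55 for Cxcl5, 1.38 and 1.77 for the Mmp9 probe sets, 1.23 for Cxcl1 and 1.06 for Cxcl2, against a median of 0.38 over all tested probe sets. These lay at or above the 93.5 percentile. Il1b (0.85), Csf3r (0.70) and Ngp (0.70) lay at the 88.5, 83.0 and 82.5 percentiles, and Lcn2 (0.34) at 41.1. From its lowest to its highest tumour S100a8 spanned 55.7 to 7802.

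A few tumours held many of the highest values. The 4 brightest arrays of each gene make 40 places, and 18 arrays filled them. E2F1 null tumour 6 filled 7, with the highest Mmp9 (2339), Cxcl2 (745.7), Cxcl5 (600.3) and Il1b (611.3), while its Lcn2 of 7653 was near the bottom. E2F3 heterozygous tumour 1 filled 6, with the highest Csf3r (332.4) and Cxcl1 (2072), and wild-type tumour 18 filled 5, with the highest S100a9 (3497). E2F3 heterozygous tumour 12 had the highest S100a8 (7802), and with it a Ngp of 178.8. By genotype, the places were 11 in E2F1 null, 4 in E2F2 null, 16 in E2F3 heterozygous and 9 in wild-type tumours, a description with no test.

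Tumours that share a label number were alike in S100a9 and unlike in Cxcl1. These were the extremes: the correlation within label numbers was 0.72 for S100a9 and 0.01 for Cxcl1, against a median of 0.16 over all tested probe sets. Between them it was 0.51 for Ngp, 0.45 for Lcn2, 0.43 for Csf3r, 0.42 for S100a8 and 0.40 for Il1b. It was 0.37 and 0.44 for the brighter and dimmer Mmp9 probe sets, 0.32 for Cxcl5 and 0.19 for Cxcl2. S100a9 was 1583 and 909.1 in the E2F3 heterozygous pair numbered 4194 and 21.35 and 18.22 in the E2F2 null pair numbered 3497. Cxcl1 in the same pairs was 2072 and 94.15, and 177.8 and 64.22. In the 4 E2F2 null tumours numbered 4010, S100a9 was 220.8, 210.4, 28.28 and 51.62, a spread as wide as that between many numbers.

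**Figure D3:**
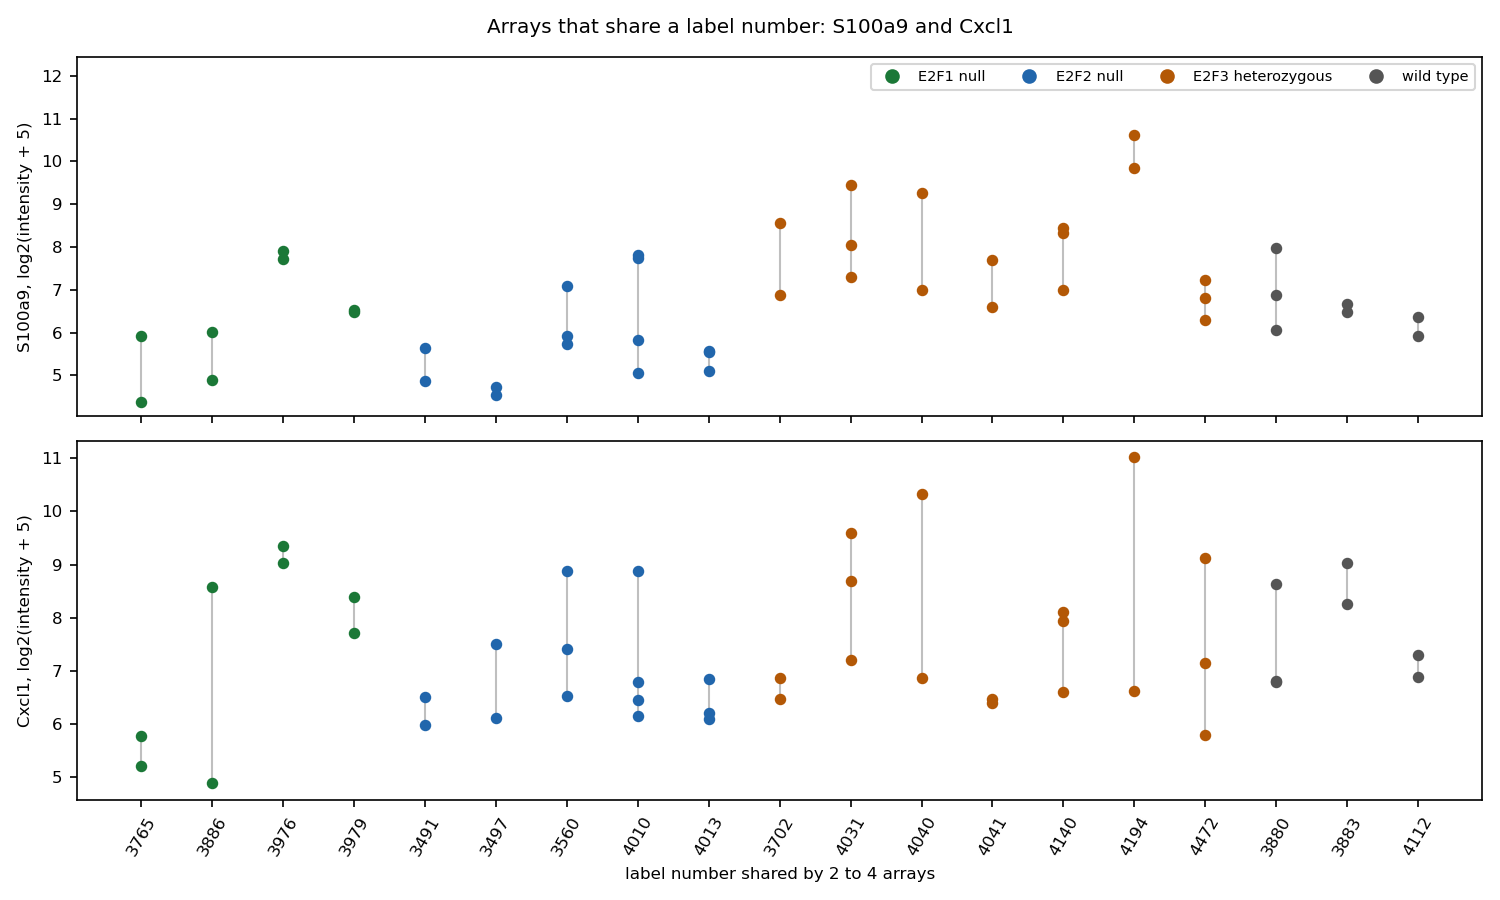
Log2(intensity + 5) of S100a9 (top) and Cxcl1 (bottom) in the arrays that share a label number, coloured by genotype; a grey line joins arrays of 1 number. S100a9 values cluster by number, as at 4194, where Cxcl1 was 2072 and 94.15.

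Members were then set against each other over the means of the 53 label numbers. Of 45 pairs, 42 had a positive Pearson correlation, and 32 passed an adjusted permutation p of 0.05 (Benjamini-Hochberg over the 45), 28 of them by Spearman's rho too. Arrays vary along shared axes, so the same was read for all pairs of 8769 tested genes: 29.1% had a correlation at least as large in size as the weakest of the 32 (0.33), and 50.8% were positive. Several members reach that size with far more genes than an average gene does: 52.3% of all tested genes for Mmp9, 51.5% for Cxcl5, 50.2% for Il1b, 46.1% for Csf3r, 43.7% for S100a8 and 41.1% for S100a9, against 33% for Cxcl1, 16.8% for Ngp, 12.6% for Cxcl2 and 8.1% for Lcn2. The 95th percentile of r over all genes was 0.70 for Mmp9 and for Cxcl5, 0.67 for Il1b, 0.62 for Csf3r and 0.57 for S100a9. Since these 10 genes were picked as related, the comparison is a description, and the count of 32 is not a result particular to them.

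The tightest pairs joined Mmp9, Cxcl5, Il1b and Csf3r. Mmp9 with Cxcl5 had r = 0.84 and rho = 0.79 (n = 53, permutation p = 1e-05 for each, the smallest that the resamples can give, adjusted p of r = 3.21e-05), and r was 0.82 in E2F1 null, 0.80 in E2F2 null, 0.90 in E2F3 heterozygous and 0.88 in wild-type tumours. Mmp9 with Il1b had r = 0.79 and rho = 0.71, Csf3r with Il1b r = 0.78 and rho = 0.73, and Cxcl5 with Il1b r = 0.77 and rho = 0.66, each with the same p. Without the 2 numbers farthest from the median these 4 correlations were 0.76, 0.66, 0.73 and 0.65. S100a9 had r = 0.70 with Il1b, 0.68 with Mmp9 and 0.67 with Csf3r, beside 0.64 with its partner S100a8 (rho = 0.61, without the 2 farthest 0.55).

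The chemokines were positively correlated with each other, though less closely than the pairs above. Cxcl1 with Cxcl2, neighbours that share the kappaB letters printed above, had r = 0.42 and rho = 0.42 (permutation p = 0.00133 and 0.00191, adjusted p of r = 0.00272, without the 2 farthest 0.41). Cxcl1 with Cxcl5 had r = 0.38 and Cxcl2 with Cxcl5 r = 0.49 (adjusted permutation p of r = 0.00787 and 5.29e-04). The 95th percentile of r over all tested genes was 0.55 for Cxcl1 and 0.34 for Cxcl2. Cxcl1 was closest among the members to S100a9 (r = 0.64, rho = 0.65), followed by Il1b (r = 0.54, rho = 0.60). Several correlations of Cxcl2 rested on E2F1 null tumour 6: without it r was 0.21 with Mmp9, 0.22 with Csf3r and 0.29 with Il1b, none past the threshold, against 0.39, 0.34 and 0.45 with it. The same held for Ngp with Mmp9 (0.28 without it, 0.39 with it) and with Il1b (0.21 and 0.33). Lcn2 was apart from most members: it passed with Cxcl1 (r = 0.40) and S100a8 (0.38), and its r with the other 7 lay between -0.05 and 0.18.

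Csf3r differed by genotype in these correlations. With S100a9 its r was 0.80 in E2F1 null (16 numbers), -0.75 in E2F2 null (11), 0.82 in E2F3 heterozygous (10) and 0.78 in wild-type tumours (16). In E2F2 null tumours Csf3r was negatively correlated with all 9 other members, its r lying between -0.20 with Il1b and -0.75. Its E2F2 null range was also the narrowest, 22.1 to 98.1, with 4 tumours above the filter level, and the difference between genotypes in r was not tested. Csf3r lies on chromosome 4, 10.1 Mb from E2f2 itself in the RefSeq table, and Mmp9 and Il1b lie on chromosome 2, 10.4 and 25.2 Mb from E2f1. The part of DNA linked to a targeted allele in these values was not tested.

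**Figure D4:**
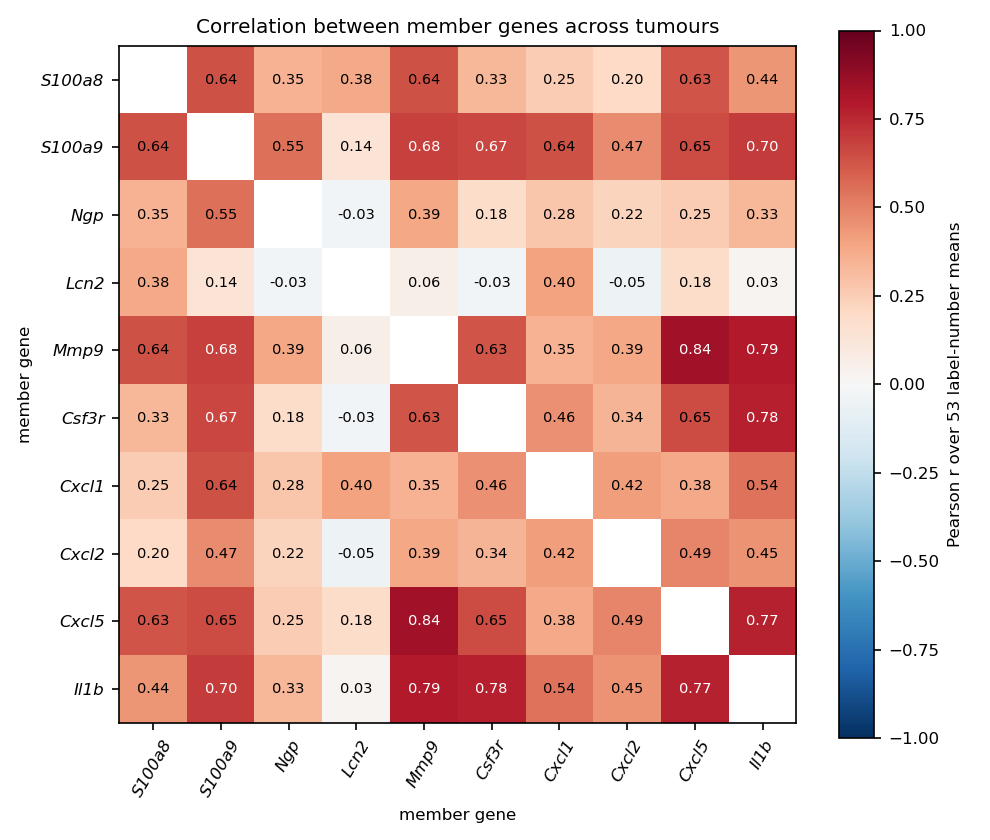
Pearson r between the 10 genes over 53 label-number means of log2(intensity + 5), coloured between -1 (blue) and 1 (red). All pairs of Mmp9, Cxcl5, Il1b, Csf3r and S100a9 had r at or above 0.63, as did S100a8 with S100a9, Mmp9 and Cxcl5. The 95th percentile of r over all tested genes was 0.70 for Mmp9 and for Cxcl5, above several of these pairs. The Lcn2 row is pale apart from Cxcl1 (0.40) and S100a8 (0.38).

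What else varied with the members was read from scores of 20 gene lists, giving 200 relations, of which 102 passed an adjusted permutation p of 0.05 and 88 did so by rho too. The shares of single genes given above, up to 52.3% for Mmp9 at an r of size 0.33, are the background to this count, which singles out no list. Mmp9 followed the other metalloproteinases (r = 0.88), the interleukin 1 and NF-kappaB circuit (0.86), fibroblast and collagen genes (0.81), basal and myoepithelial genes (0.81), squamous keratinocyte genes (0.73) and, less closely, other neutrophil genes (0.70) and macrophage genes (0.68). Cxcl5 had r = 0.82 and Il1b r = 0.71 with fibroblast and collagen genes. Both were negatively correlated with cell cycle genes (-0.70 and -0.56), as was Mmp9 (-0.64). Without the 2 farthest numbers these were -0.57, -0.34 and -0.44. Within E2F2 null tumours the r was -0.24 for Cxcl5 but 0.21 for Il1b and 0.34 for Mmp9, whereas all 3 were negative in each of the other genotypes. S100a8 (-0.52), Csf3r (-0.49) and S100a9 (-0.37) also passed negatively with cell cycle genes. Cxcl2, Lcn2, Ngp and Cxcl1 did not pass, with r between -0.21 and -0.01.

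S100a8 had its largest r with the interleukin 1 and NF-kappaB circuit (r = 0.80, rho = 0.81), and was the member with the largest r with other neutrophil genes (r = 0.78, rho = 0.79, adjusted p of r = 4.08e-05), with r to the neutrophil genes of 0.74 in E2F1 null, 0.65 in E2F2 null, 0.76 in E2F3 heterozygous and 0.91 in wild-type tumours. The neutrophil score averaged the 14 of 32 listed genes that passed the filter, Ltf among them, so genes with a wide range weigh more. Elane, Mpo, Camp, Itgam and Cd177 were not in it. S100a8 also had r = 0.71 with basal and 0.66 with squamous genes. S100a9 was closer to squamous genes (r = 0.67, rho = 0.60) than to other neutrophil genes (r = 0.44, rho = 0.33), though these values were not tested against each other. Without the 2 farthest numbers they were 0.52 and 0.34. Cxcl1 had r = 0.01 with other neutrophil genes, 0.03 with macrophage and 0.09 with fibroblast genes, and its largest r was with other S100 genes (0.54, adjusted p = 7.69e-05). It also passed with squamous genes (0.45), the interleukin 1 and NF-kappaB circuit (0.33), other metalloproteinases (0.33) and, negatively, B and plasma cell genes (-0.36). Ngp had r = 0.36 with other neutrophil genes and 0.29 without E2F1 null tumour 6, where it no longer passed. Lcn2 had r = 0.20 with them, and its largest r was 0.40 with luminal epithelium genes (rho = 0.29, adjusted p of rho = 0.0676).

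**Figure D5:**
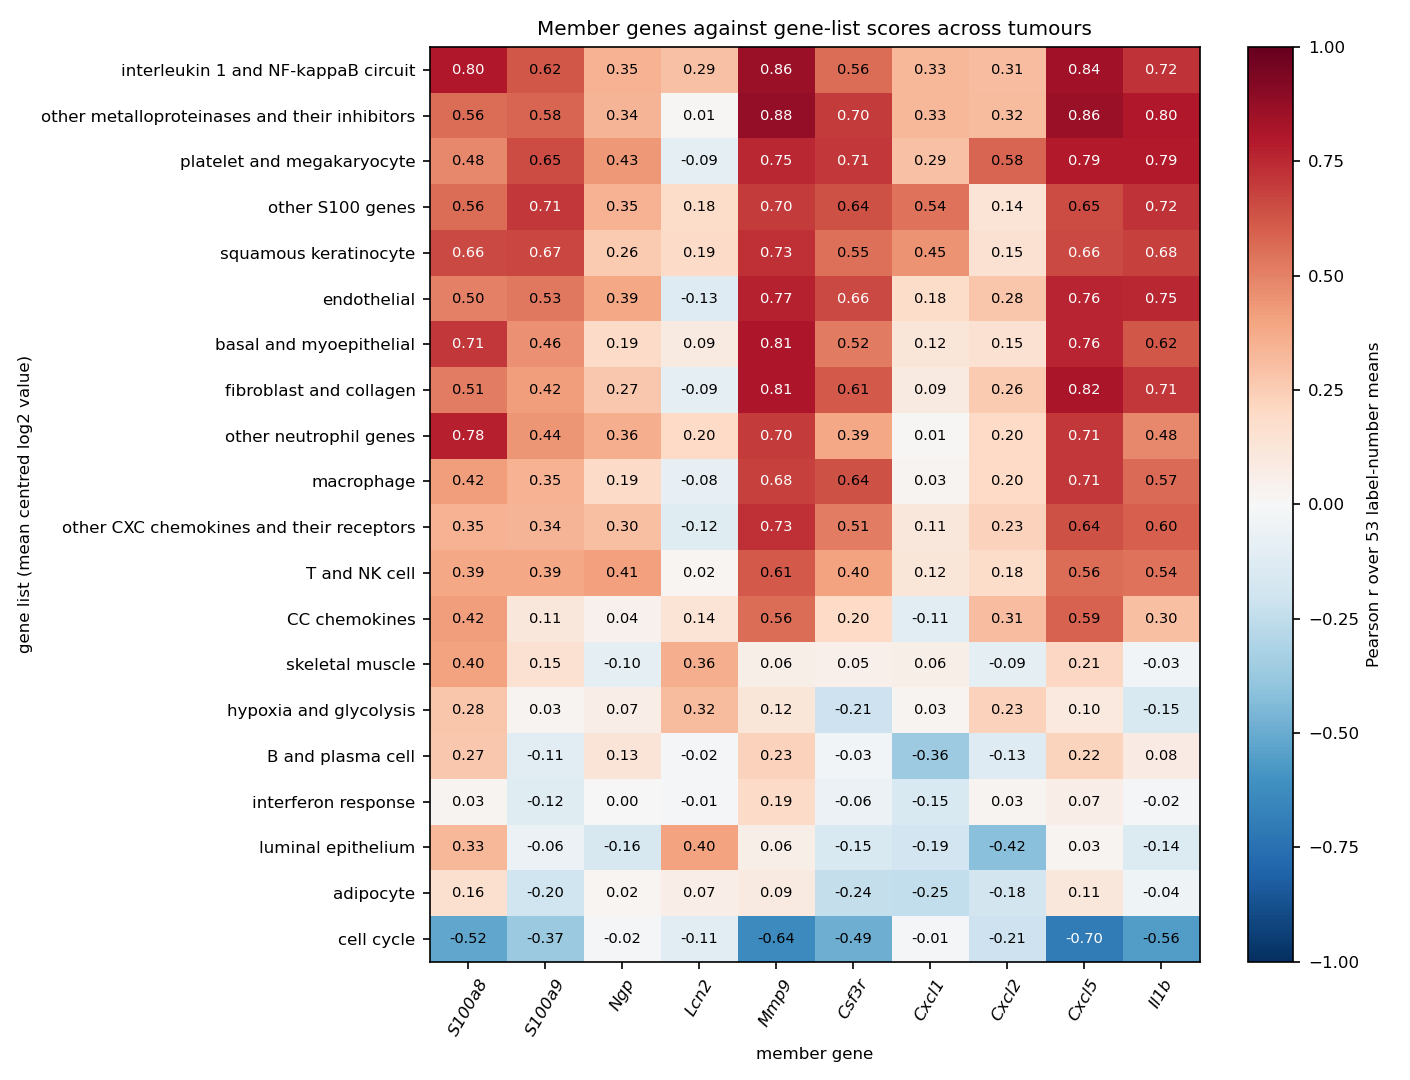
Pearson r of each gene with the scores of 20 gene lists over 53 label numbers, lists ordered by their mean r. Mmp9, Cxcl5 and Il1b are red across most stromal, immune and squamous lists and blue for cell cycle genes, whereas Cxcl1, Cxcl2, Ngp and Lcn2 are mostly pale.

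The genes outside the set most like each member by rank over 80 arrays (Spearman's rho, 8769 genes, no p) were rarely neutrophil genes. For Cxcl1 they were Tgfa (0.83), Hbegf (0.82), both ligands of the epidermal growth factor receptor, and Spsb4 (0.81). Mmp9 was most like Fscn1, an actin-bundling protein (0.84), Lama3, a laminin chain (0.81), and Gzmd (0.79), and Csf3r was most like Elk3 (0.79), Oaf (0.76) and Eogt (0.75). Il1b was nearest to Ehd2 (0.77), Bmp1 (0.76) and Col18a1 (0.75), and Cxcl5 to Midn (0.72), Ptgs2, the inducible cyclooxygenase (0.72), and Fscn1 (0.71). S100a8 had Arpc2 (0.71), Ptgs2 (0.69) and Pdlim5 (0.69), and S100a9 had Ifitm1 (0.72), Sdc1 (0.71) and Vps37c (0.69). Ngp alone had another neutrophil-list gene on top, Chil3 (0.55), ahead of Ifitm1 (0.52) and Arhgap4 (0.49). The nearest genes were less close for Lcn2 (Chst2 0.58, Litaf 0.58, Il1rap 0.57) and Cxcl2 (Ugcg 0.52, Coro1c 0.50, Cds2 0.48). With members counted, Cxcl1 ranked 1 of 8768 genes for likeness to Cxcl2 (0.59). For Mmp9 the closest member, Cxcl5 (0.65), ranked 187.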

How the data were processed

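RNA of 80 flash-frozen mouse mammary tumours was labelled and hybridised to Affymetrix arrays, 1 per tumour. The deposited values are MAS5 intensities on a linear scale, made with Affymetrix Expression Console per the submitters' processing notes. The sources used here give no version for it. No background or quality flags were used, and the number of arrays limits the precision. Of 22690 probe sets, 64 controls were left out, and genes were named from the platform annotation (20380 probe sets with 1 symbol, 691 with several, 1555 with none). The 10 genes and all lists were chosen with earlier results of these data known.

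The log2 values were computed here from the deposited intensities as log2(intensity + 5). Probe sets above the 40th percentile (74.58) on at least 10 arrays were tested (14092). limma 3.58.1 in R 4.3.3 fitted the 4 genotypes on all 80 arrays with intensity trend and robust moderation and the label number as a random block (consensus correlation 0.167). Benjamini-Hochberg adjustment ran over all probe sets per contrast, two-sided, with a threshold of 0.05, and the script was tested on simulated data. Correlations used means per label number (53) and the brightest probe set of a gene, with two-sided permutation p-values from 100000 resamples (Python 3.11.15, numpy 2.4.6, scipy 1.17.1). List scores average the log2 value of each tested gene minus its mean over 80 arrays. All members were named, up to 3 genes per list by smallest p, and the 3 genes outside the set most like each member by Spearman's rho. Csf3, Cxcr2 and other genes of the lists were named after their values were seen. Grouping followed the genotype label. Alternatives covered the pseudocount, filter, scaling, block, probe set choice, moderation, samples fitted and each array left out in turn.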

Additional observations from a re-analysis of the deposited data

How the results depend on the processing

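Genotype gave 0 called members (limma, adjusted p under 0.05) in all 6 contrasts and the F test under all 76 counts from other settings and all 560 with 1 array left out; with an unadjusted p under 0.05, members numbered 2 to 6 for E2F2 null minus E2F3 heterozygous over the other settings, 4 as reported (3 to 5 with 1 array left out). For E2F2 null minus wild type, 0 as reported, they numbered 0 to 2 over the other settings and up to 3 with 1 array left out, and in the F test, 3 as reported, 0 to 3. In E2F2 null minus E2F3 heterozygous the S100a9 difference lay between -2.07 and -1.48 (adjusted p 0.127 to 0.904) and that of Csf3r between -0.88 and -0.60 (adjusted p 0.124 to 0.904). The stricter filter, above 259.6 on at least 10 arrays, left 4 of 11 probe sets, and the other 7 could not be tested. The count of all probe sets called moved by over 1.5 times for E2F2 null minus E2F3 heterozygous (between 1 and 16, 9 as reported) and, with fewer genes or other filters, elsewhere (E2F1 null minus wild type 4 to 15 against 13, E2F2 null minus wild type 2 to 7 against 5, E2F3 heterozygous minus wild type 0 to 1 against 1, E2F1 null minus E2F2 null 14 to 39 against 32, E2F1 null minus E2F3 heterozygous 7 to 19 against 17, F test 13 to 39 against 31).

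Differences that changed sign were all within 0.24 of 0 as reported, and none was called. With a pseudocount of 32 these were Cxcl2 (0.0010) in E2F1 null minus wild type, Mmp9 (-0.01 and -0.04) in E2F3 heterozygous minus wild type and Ngp (-0.01) in E2F1 null minus E2F2 null. In that last contrast Ngp was also -0.03 under quantile normalization, -0.03 under median centring, -0.0031 without the label-number block and -0.02 with 1 mean per label number. Lcn2 in E2F3 heterozygous minus wild type was -0.03 under median centring, -0.02 with 1 mean per label number and -0.0014 with those genotypes alone in the fit. Lcn2 in E2F2 null minus E2F3 heterozygous was 0.01 under median centring, and Il1b in E2F1 null minus E2F3 heterozygous 0.0049 with 1 mean per label number. Leaving out each array in turn gave -0.02 to 0.14 for Csf3r, -0.24 to 0.05 for Cxcl2 and -0.45 to 0.02 for S100a9 in E2F1 null minus wild type. It gave -0.10 to 0.19 for Cxcl1, -0.03 to 0.03 for Lcn2, -0.10 to 0.34 and -0.08 to 0.33 for the Mmp9 probe sets in E2F3 heterozygous minus wild type, -0.22 to 0.04 for Il1b in E2F1 null minus E2F3 heterozygous and -0.09 to 0.19 for Ngp in E2F1 null minus E2F2 null. The cause was not tested.

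The pairs of members past the threshold numbered 34 with all 80 arrays as points, 32 with a pseudocount of 32 and 29 without E2F1 null tumour 6, against 32 as reported; relations with lists numbered 108 and 94 against 102. No paired analysis was possible because the replicate numbers were given in accession order and name no shared animal or batch across genotypes.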
